A study of Mus musculus with 6 samples.

Results

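The C/EBP transcription factors were described here in blasts from a mouse model of acute myeloid leukemia (AML). The family was taken as the 6 genes Cebpa, Cebpb, Cebpd, Cebpe, Cebpg and Cebpz, chosen by gene symbol from the 53458 genes of the quantified transcriptome, and all 6 were among the 22170 genes tested. RNA-seq was available for 3 Cebpa-/p30 Tet2+/+ mice (19, 23 and 24) and 3 Cebpa-/p30 Tet2-/- mice (5, 7 and 8), with 1 library per mouse. All 6 mice received C57BL/6 bone marrow that carried Mx1-Cre, 1 Cebpa allele that makes only the p30 protein and 1 floxed Cebpa allele, and the Tet2-/- donors also carried 2 floxed Tet2 alleles. Recipients were lethally irradiated adult females of a congenic strain. Poly(I:C) then induced Cre, which acts through the interferon-responsive Mx1 promoter, and removed the floxed alleles. Both groups therefore lacked the full-length p42 protein of Cebpa, and no wild-type Cebpa control is part of the comparison. Marrow of moribund recipients was frozen and sorted for donor-type CD45.2+ cells without T cell, B cell or erythroid surface markers. Marrow came from individual donors, and the study states for its in vivo experiments that each donor had several recipients. It also reports that leukemia without TET2 arose with shorter latency. Whether any of these 6 recipients shared a donor, and the age of each mouse at disease, were not given in the sources used here. The comparison asks whether the C/EBP genes are expressed at other levels when TET2, an enzyme that oxidizes methylated cytosine and so promotes DNA demethylation, is lost in leukemia driven by p30.

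C/EBP proteins are basic leucine zipper (bZIP) factors that bind DNA as dimers with each other or with other bZIP proteins, and they are central to the making of granulocytes. C/EBPα commits progenitors to the myeloid lineage and restrains the cell cycle, and its p30 form, made from an internal start codon, lacks the N-terminal activation region of p42. C/EBPβ serves granulocyte production under stress, C/EBPδ is induced in inflammation and late granulocyte maturation, C/EBPε is needed for secondary granules and terminal neutrophil maturation, and C/EBPγ is a short dimer partner without a strong activation domain. Cebpz shares the name but not the zipper: its product is a CCAAT-box-associated protein of another family, related to proteins of ribosome assembly.

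None of the 6 genes passed the test between genotypes. The edgeR quasi-likelihood test with Benjamini-Hochberg adjustment over all genes called 0 of 6 at an adjusted p under 0.05, where 0.0451% of all tested genes were called, and DESeq2 also called 0 of 6, against 1.74% of all genes (1.73% on length-scaled counts, again with 0 of 6). At an unadjusted edgeR p under 0.05 the members again counted 0 of 6, against 8.11% of all genes. Other settings placed 1 or 2 members under that unadjusted threshold: Cebpa with DESeq2 on either kind of counts and with scaling by library size only, Cebpa and Cebpd with no filter on low counts, and, with 1 mouse left out, Cebpa (without mouse 19 or 5), Cebpb (without mouse 23 or 7), or Cebpd and Cebpe (without mouse 8). In CPM, which are read counts scaled to library size with TMM factors, the genotypes overlapped for all 6 members, while they did not overlap for 14.4% of all genes tested and 16% of those averaging 1 CPM or more. The estimates nearest to the threshold were those of Cebpa, lower in Tet2-/-, and Cebpd, higher in Tet2-/-. A p that misses the threshold does not show that the levels are equal, and each estimate is given with its standard error for that reason.

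**Figure D1:**
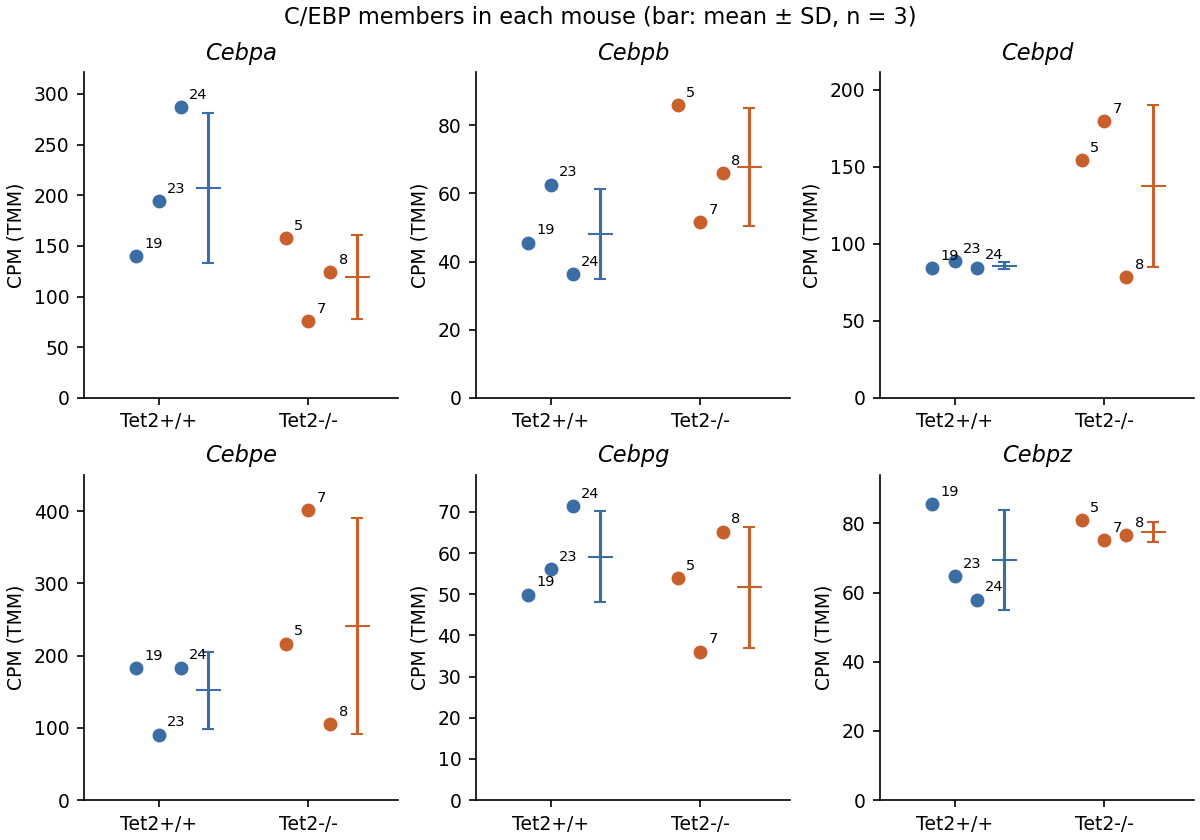
CPM of each C/EBP gene in each mouse, on a linear axis from 0, with mice numbered and the bar giving the mean ± SD of 3 mice per genotype. The genotypes overlap in every panel; for Cebpd the Tet2+/+ mice lie between 84.2 and 88.6 CPM while the Tet2-/- mice run from 78.4 to 179 CPM.

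The 6 libraries held 13036643 to 32855343 estimated counts, with the deepest from mouse 5. Over the whole table edgeR called 10 genes, all lower in Tet2-/- (1135 lower and 664 higher at an unadjusted p under 0.05), and DESeq2 called 326 lower and 59 higher. Markers of blasts and myeloid cells (Ptprc, Kit, Cd34, Itgam, Mpo, Elane) summed to 6300 to 8103 CPM in Tet2+/+ and 6020 to 8591 CPM in Tet2-/-. Of these 6 genes 3 were higher on average in Tet2-/-, so the sum does not show that each marker was unchanged. T cell markers (4 of 4 measured, 3 higher on average in Tet2-/-) summed to at most 25.8 CPM and B cell markers (4 of 4, 0 higher) to at most 34.0 CPM. Megakaryocyte markers (4 of 4, 1 higher on average in Tet2-/-, Ppbp at 0 in at least 1 library) summed to 24.5 to 45.4 CPM in Tet2+/+ and 9.16 to 26 CPM in Tet2-/-. Tet2 itself stood at 73.6, 79.5 and 98.4 CPM in Tet2+/+ mice 19, 23 and 24 and at 111, 79.4 and 96.7 CPM in Tet2-/- mice 5, 7 and 8. A count over all exons of the gene includes exons outside the deleted stretch, so these Tet2 values check nothing about the labels.

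Cebpa (ENSMUSG00000034957, chr7:35119293-35121928, + strand, GRCm38) had 140, 194 and 287 CPM in Tet2+/+ mice 19, 23 and 24 and 158, 75.7 and 124 CPM in Tet2-/- mice 5, 7 and 8. Mouse 24 was the highest and mouse 7 the lowest, and Tet2-/- mouse 5 lay above Tet2+/+ mouse 19, so the genotypes overlapped. The means were 207 ± 74.4 CPM (SD, n = 3) in Tet2+/+ and 119 ± 41.2 CPM in Tet2-/-. The edgeR log2 fold change was -0.80 with a standard error of 0.35 (adjusted p = 0.632). The estimate leaned on the highest and the lowest mouse: it was -0.49 without mouse 24 and -0.56 without mouse 7, and -1.07 without mouse 5. With DESeq2 the adjusted p was 0.464. Cebpa shares 51 exon bases (1.93%) with the antisense gene Gm45091, which had 4 to 16 counts per library. Basophil and mast cell markers (Mcpt8, Cpa3, Ms4a2, Prss34) summed to 280 to 368 CPM in Tet2+/+ and 25.6 to 101 CPM in Tet2-/-, without overlap, with 1 of the 4 higher on average in Tet2-/- and Prss34 at 0 in at least 1 library. Eosinophil markers (Prg2, Epx, Il5ra, Ear1, Ccr3) summed to 46.6 to 61.7 CPM in Tet2+/+ and 13.1 to 34.7 CPM in Tet2-/-, again without overlap, with 0 of 5 higher on average in Tet2-/- and Ear1 and Ccr3 at 0 in at least 1 library. These lineages can express C/EBP genes, and their part in the Cebpa values was not tested. In bulk RNA, fewer cells of a type and less RNA per cell cannot be told apart.

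Cebpa is annotated with 2 protein-coding transcripts that differ in a stretch where the p30 start lies, so the sequence at each in-frame start codon is shown (GRCm38, + strand, 5′ to 3′). The capitals mark the ATG, and codons are counted from 1 at the annotated start, whose first base is at chr7:35119419.
Cebpa-201 codon 1: ATGgagtcggccgact
Cebpa-201 codon 15: gccgcggcccccgATGagcagtcacctcc
Cebpa-201 codon 118: cggcggcgcggtcATGtccgcgggggcgc
Cebpa-201 codon 214: cggccagaccaccATGcacctgcagcctg
Cebpa-201 codon 355: cttggtcaaggccATGggcaactgcgcgt
Cebpa-202 junction: ggcggcgcggtcATaagtcggtggaca

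The open reading frame of Cebpa-201 has 359 codons and 5 in-frame ATG codons. The ATG at codon 118, 351 bases after the annotated start, is the known start of p30. Cebpa-202 lacks the 475 bases at chr7:35119772-35120246, which begin at the last base of that ATG. In the junction line the capitals mark the AT that remains, and the codon across the junction reads ATA. The missing bases are not a multiple of 3, and the frame of Cebpa-202 from the annotated start ends after 159 codons, at chr7:35120373 instead of chr7:35120498. As annotated, Cebpa-202 therefore holds 2 in-frame ATG codons and not the one from which p30 starts. The reference transcripts do not carry the change of the p30 allele, so counts on them give Cebpa RNA and not the amount of either protein form.

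Salmon nevertheless assigned more than 46% of Cebpa estimated counts to Cebpa-202 in every mouse. Its share was 69.1%, 46.3% and 50.1% in Tet2+/+ mice 19, 23 and 24 and 58.1%, 64.8% and 72.3% in Tet2-/- mice 5, 7 and 8. The genotypes overlapped, with the lowest share in mouse 23 and the highest in mouse 8 (exact two-sided permutation test, p = 0.3, where 0.1 is the smallest p that 3 mice against 3 allow). The stretch that tells the transcripts apart has a GC content of 76.8%, against 62.6% for Cebpa-201 as a whole, and the part of GC-rich sequence in the split was not tested.

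In TPM, which are counts scaled for both transcript length and depth, Cebpa-201 was at 7.81, 21.1 and 29.8 in Tet2+/+ mice 19, 23 and 24 and at 10.9, 4.67 and 6.37 in Tet2-/- mice 5, 7 and 8. Mice 23 and 24 stood above all others, and mouse 19 lay among the Tet2-/- mice. The limma log2 fold change on log2(TPM + 1) was -1.20 with a standard error of 0.52 (adjusted p = 0.796). Cebpa-202 was at 22.5, 23.7 and 38.3 TPM in Tet2+/+ and at 20.0, 11.2 and 21.6 TPM in Tet2-/- mice 5, 7 and 8. For Cebpa-202 the genotypes did not overlap, with a gap of less than 1 TPM between mice 19 and 8, and limma gave -0.66 with a standard error of 0.33 (adjusted p = 0.806), with -0.38 without mouse 7 and -0.43 without mouse 24. Of all 61991 transcripts tested 11.8% did not overlap in TPM, and limma called 0.0306% of them, none of them a C/EBP transcript (0 also at an unadjusted p under 0.05, against 5.97%).

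**Figure D2:**
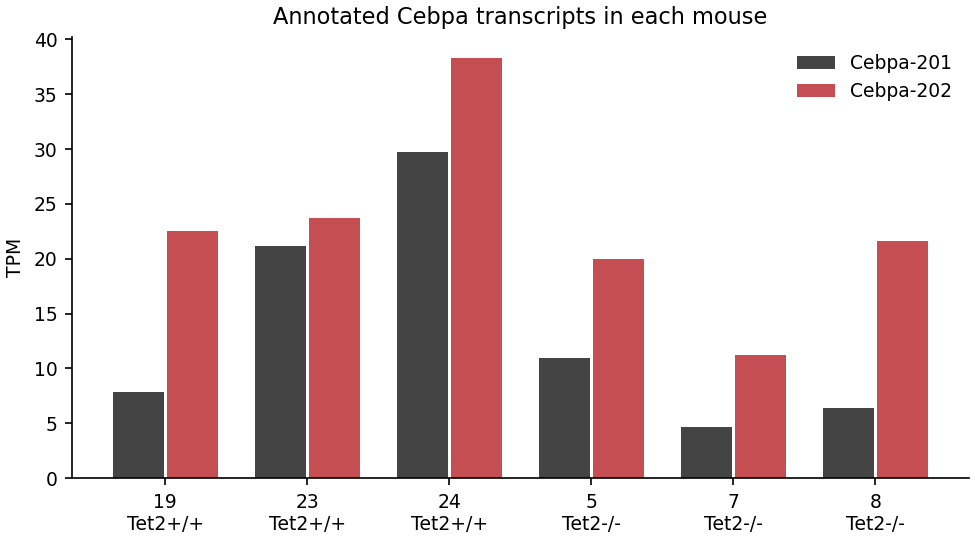
TPM of the annotated Cebpa transcripts Cebpa-201 and Cebpa-202 in each mouse, on a linear axis from 0. Cebpa-202 exceeds Cebpa-201 in all 6 mice, and Cebpa-201 is above 20 TPM only in mice 23 and 24.

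Cebpb (ENSMUSG00000056501, chr2:167688915-167690418, + strand, GRCm38) had 45.5, 62.5 and 36.3 CPM in Tet2+/+ mice 19, 23 and 24 and 85.9, 51.5 and 65.9 CPM in Tet2-/- mice 5, 7 and 8. The highest values were from Tet2-/- mice 5 and 8, while mouse 7 lay below Tet2+/+ mouse 23. The edgeR log2 fold change was 0.49 with a standard error of 0.27 (adjusted p = 0.684), and it stayed between 0.28 and 0.71 with each mouse left out. Monocyte and macrophage markers (6 of 6 measured, 5 higher on average in Tet2-/-) summed to 2284, 3079 and 1648 CPM in mice 19, 23 and 24 and to 4556, 2433 and 5112 CPM in mice 5, 7 and 8. Both Cebpb and this sum ran, from the low end, through mice 24, 19, 7 and 23, and mice 5 and 8 were on top of each, in the opposite order. The part of these cells in the Cebpb values was not tested. Cebpb has 1 annotated transcript, and 312 of its exon bases (20.7%) are shared with Tmem189 on the opposite strand, whose reads there cannot be told apart in a library kit that does not mark strand; Tmem189 had 832 to 2684 counts per library, against 516 to 2716 for Cebpb.

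Cebpd (ENSMUSG00000071637, chr16:15887286-15891031, + strand, GRCm38) had 84.2, 88.6 and 84.5 CPM in Tet2+/+ mice 19, 23 and 24 and 154, 179 and 78.4 CPM in Tet2-/- mice 5, 7 and 8. The Tet2+/+ mice lay within 1.05-fold of each other, whereas mice 5 and 7 stood well above them and mouse 8 just below. The mature neutrophil marker sum given with Cebpe below was also highest in mice 7 and 5 (58823 and 38763 CPM) and lower in mouse 8 (13578 CPM). Among Tet2+/+ mice that sum ran from 6343 to 28967 CPM while Cebpd was nearly level, and its part in the Cebpd values was not tested. The edgeR log2 fold change was 0.68 with a standard error of 0.30 (adjusted p = 0.628). Without mouse 8 it was 0.96 (edgeR adjusted p = 0.314) and without mouse 7 it was 0.45, so the estimate moved with single Tet2-/- mice and was not called in any of these fits. Nearly all Cebpd counts (at least 99.8% in each mouse) fell on Cebpd-201. Cebpd shares 562 exon bases (15%) with Spidr on the opposite strand, which had 586 to 1394 counts per library.

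Cebpe (ENSMUSG00000052435, chr14:54710360-54712174, - strand, GRCm38) had 182, 90.8 and 183 CPM in Tet2+/+ mice 19, 23 and 24 and 217, 402 and 106 CPM in Tet2-/- mice 5, 7 and 8. In CPM, though not in TPM, it had the widest range of the members, with 4.42-fold between mouse 7 at the top and mouse 23 at the bottom. Mouse 8 lay below mice 19 and 24. The means were 152 ± 53.1 CPM (SD, n = 3) and 241 ± 150 CPM. The edgeR log2 fold change was 0.67 with a standard error of 0.50 (adjusted p = 0.779), and it dropped to 0.09 without mouse 7 and rose to 1.02 without mouse 8. Mature neutrophil markers (Ly6g, Retnlg, S100a8, S100a9, Cxcr2; 5 of 5 higher on average in Tet2-/-, none at 0) summed to 28967, 6343 and 24079 CPM in mice 19, 23 and 24 and to 38763, 58823 and 13578 CPM in mice 5, 7 and 8. Mice 7 and 5 led in both measures and mice 8 and 23 were lowest in both, and the part of more mature cells in the Cebpe values was not tested.

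Cebpg (ENSMUSG00000056216, chr7:35046422-35056573, - strand, GRCm38), which lies 62.7 kb from Cebpa, had 49.9, 56.1 and 71.5 CPM in Tet2+/+ mice 19, 23 and 24 and 53.9, 36.1 and 65.2 CPM in Tet2-/- mice 5, 7 and 8. Mouse 24 was the highest and mouse 7 the lowest, as for Cebpa. The edgeR log2 fold change was -0.19 with a standard error of 0.26 (adjusted p = 0.881), and without mouse 7 it turned to 0.0070. Of Cebpg counts, 89.3% to 96.2% fell on Cebpg-202. Its exons share 73 bases with Gm44836 on the same strand and 4 bases with Gm45095 on the opposite strand, both with at most 8 counts per library, and Gm45094 lies within it without a shared exon base (2 to 19 counts).

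Cebpz (ENSMUSG00000024081, chr17:78919006-78937066, - strand, GRCm38) had 85.6, 64.7 and 58.0 CPM in Tet2+/+ mice 19, 23 and 24 and 80.9, 75.2 and 76.5 CPM in Tet2-/- mice 5, 7 and 8. All Tet2-/- mice fell within the Tet2+/+ range, and the 1.48-fold range over all mice was the narrowest of the family. The edgeR log2 fold change was 0.16 with a standard error of 0.19 (adjusted p = 0.862), and leaving out Tet2+/+ mouse 19, 23 or 24 gave 0.33, 0.10 or 0.04. Its coding transcript Cebpz-201 took 52.3% to 72.6% of its counts, and Cebpz-204, annotated as a target of nonsense-mediated decay, took 21.9% to 43.2%. Cebpz overlaps its antisense neighbour Cebpzos over 171 exon bases (3.67%), and Cebpzos had between 76 and 182 counts per library.

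**Figure D3:**
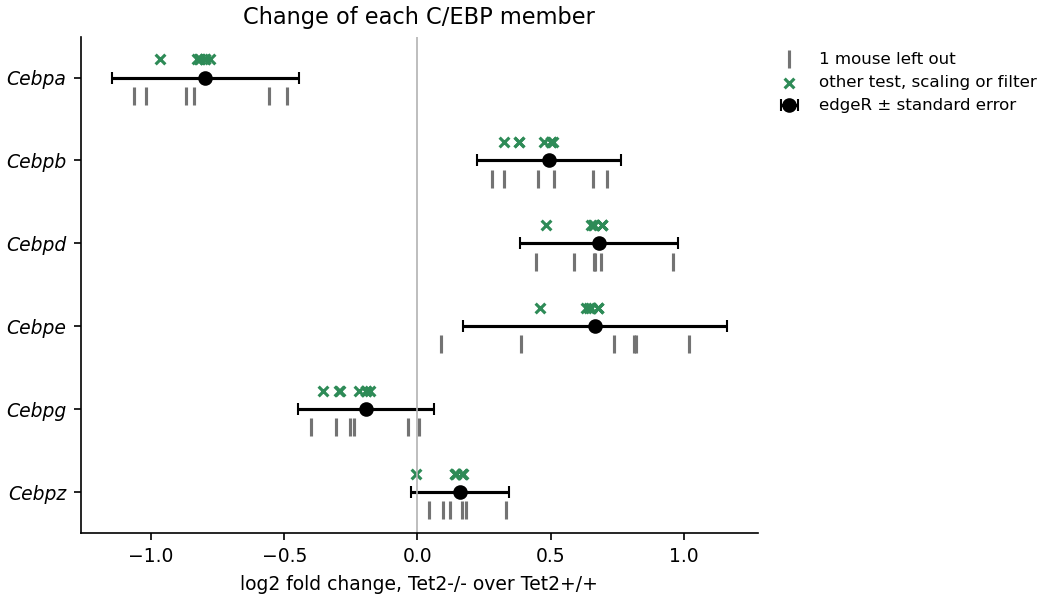
edgeR log2 fold change of each C/EBP gene, Tet2-/- over Tet2+/+, with its standard error (black), the values with 1 mouse left out (grey ticks) and those of the other tests, scalings and filters (green crosses). Cebpa stays at or below -0.49 and Cebpd at or above 0.45 throughout, whereas Cebpg and Cebpz each cross 0 in 1 setting.

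Per length, Cebpe was the most abundant member. On the TPM scale Cebpe ranged from 41.1 to 159 over the 6 mice, followed by Cebpa (15.9 to 68.1), Cebpz (16.1 to 20.2), Cebpb (13.1 to 23.3), Cebpd (11.0 to 24.4) and Cebpg (5.02 to 14.1). Each neighbouring pair in this order overlapped in range. The higher gene of the pair was above the next in 5 of 6 mice for Cebpe over Cebpa, 5 for Cebpa over Cebpz, 3 for Cebpz over Cebpb, 4 for Cebpb over Cebpd and 5 for Cebpd over Cebpg. In Tet2+/+ mice alone, Cebpz lay above Cebpd without overlap (16.1 to 20.2 against 11.4 to 13.8 TPM). In mouse 23 Cebpa (44.9 TPM) was above Cebpe (41.1 TPM), and in mouse 7 Cebpe (159 TPM) was far above Cebpa (15.9 TPM). Among the 13837 genes with a mean TPM of at least 1, Cebpe stood above 90.0% and Cebpg above 46.8%.

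The summed TPM of the family was 158, 149 and 209 in Tet2+/+ mice 19, 23 and 24 and 185, 237 and 133 in Tet2-/- mice 5, 7 and 8. The sums overlapped and did not separate the genotypes (exact two-sided permutation test, p = 0.7). Cebpa made up 19.1%, 30.2% and 32.6% of that sum in Tet2+/+ mice and 16.7%, 6.70% and 21.1% in Tet2-/- mice 5, 7 and 8. Mouse 8 lay above mouse 19, and the difference of means was -12.5 percentage points (exact two-sided permutation test, p = 0.2). Shares of the other 5 members overlapped between genotypes as well, with exact two-sided permutation p-values from 0.2 to 1, and the lowest adjusted p over the 6 shares was 0.6. The shares are parts of 1 sum and so are not independent of each other.

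Cebpa was also set against each other member within the same mouse, as the log2 ratio of their TPM. To Cebpb it was 1.10, 1.05 and 2.37 in Tet2+/+ mice 19, 23 and 24 and 0.41, 0.07 and 0.46 in Tet2-/- mice 5, 7 and 8. To Cebpd it was 1.41, 1.70 and 2.36 in Tet2+/+ mice and 0.62, -0.62 and 1.34 in Tet2-/- mice 5, 7 and 8. Both ratios were lower in every Tet2-/- mouse than in every Tet2+/+ mouse, by a mean of 1.19 for Cebpb (0.76 without mouse 24) and 1.38 for Cebpd (0.84 without mouse 7) in log2. To Cebpg the ratio was 1.81, 2.28 and 2.27 in Tet2+/+ mice and 1.80, 1.66 and 1.44 in Tet2-/- mice 5, 7 and 8, which did not overlap but left mice 19 and 5 almost level. Each of these reached p = 0.1 in the exact two-sided permutation test, the smallest p the design allows (0.167 after adjustment over the 5 ratios). The ratios to Cebpe and Cebpz overlapped (exact two-sided permutation test, p = 0.2 for each). All 5 ratios contain the same Cebpa values and are not separate evidence, and Cebpa's ratio to the 12319 genes with a mean TPM of at least 1 and a value above 0 in every library failed to overlap for 33.5% of them, being lower in Tet2-/- for 32.3%. Against that share, 3 of 5 members is a description of these mice only.

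**Figure D4:**
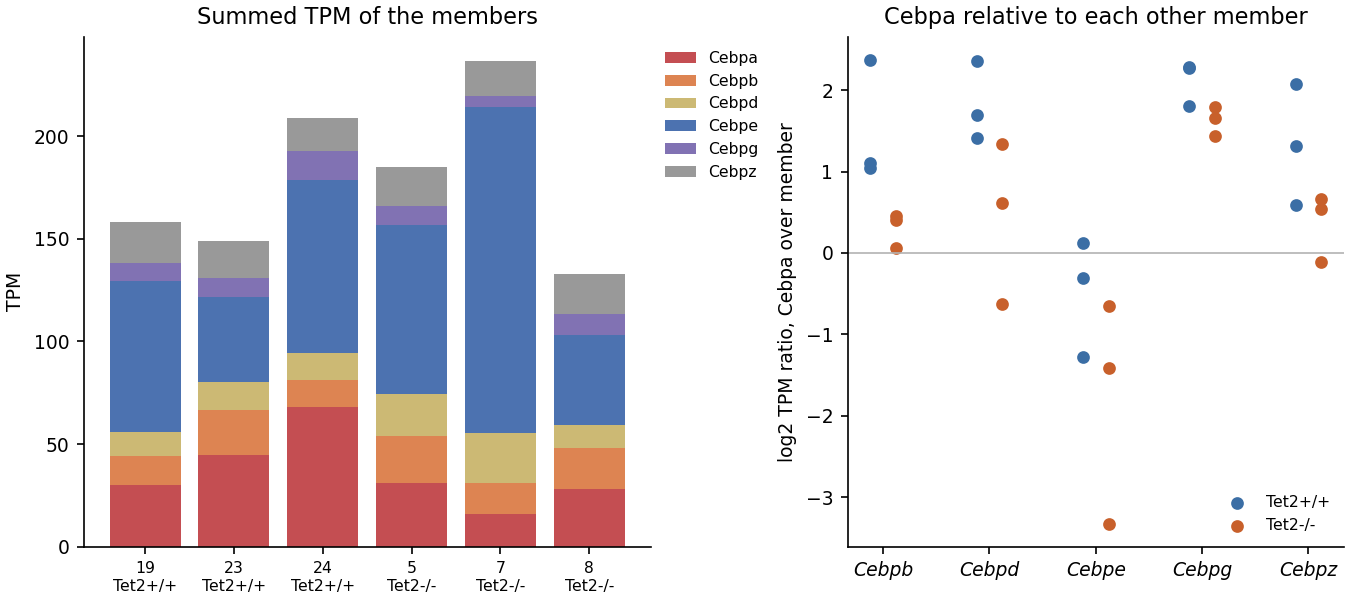
Left, summed TPM of the 6 C/EBP genes in each mouse, stacked by gene; right, log2 ratio of Cebpa TPM to that of each other member in each mouse, by genotype. The ratios to Cebpb, Cebpd and Cebpg do not overlap between genotypes, and those to Cebpe and Cebpz do.

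The members did not vary together as 1 group. After log2 CPM was centred on each gene's mean over the 6 mice, the root mean square difference between 2 members was smallest for Cebpb and Cebpz (0.35), Cebpa and Cebpg (0.38) and Cebpd and Cebpe (0.43). It was largest for Cebpa and Cebpe (1.12). Mouse 7 shows the contrast, with the lowest Cebpa and Cebpg and the highest Cebpd and Cebpe of the 6. By the same measure over the 9165 genes that averaged 10 CPM or more, the genes closest to Cebpa were Zfp280c (0.09) and Zkscan8 (0.15), and those closest to Cebpb were Mrpl34 (0.08) and Atp5d (0.09). Closest to Cebpd were Cyb561a3 (0.11) and Pgp (0.12), to Cebpe R3hdm4 (0.08) and Gm26602 (0.08), to Cebpg Zwint (0.08) and Tmem126b (0.09), and to Cebpz Slc25a17 (0.03) and U2af1 (0.04). With 6 points per gene and this many genes compared, close matches of this kind are a description only.

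The list of granule genes that C/EBPε activates in maturing neutrophils held Ltf, Camp, Ngp, Lcn2, Mmp8, Mmp9, Chil3, Itgb2l, Cybb and Fcnb. All but Chil3 were lowest in mouse 23 and highest in mouse 7, as Cebpe was. edgeR and DESeq2 called 0 of 10, with 0 at an unadjusted edgeR p under 0.05 as well, against 8.11% of all genes. All 10 estimates were positive, with a median log2 fold change of 0.92 against 0.00 for all genes tested, and the genotypes overlapped for each of the 10, while 14.4% of all genes did not overlap. Without mouse 7 the list had 6 positive estimates, 4 negative ones and a median of 0.20, so its direction leaned on that mouse. Ltf, which encodes the iron-binding granule protein lactoferrin, had 8793, 1298 and 3931 CPM in Tet2+/+ mice 19, 23 and 24 and 5348, 17443 and 3283 CPM in Tet2-/- mice 5, 7 and 8. Mmp8, the neutrophil collagenase, had 1048, 214 and 463 CPM in Tet2+/+ mice and 927, 2668 and 343 CPM in Tet2-/- mice 5, 7 and 8. For both genes mouse 7 was the highest and mouse 23 the lowest, as for Cebpe. Chil3, a chitinase-like protein of myeloid cells, departed from this order, with 4565, 2051 and 11894 CPM in Tet2+/+ mice and 15468, 7546 and 1169 CPM in Tet2-/- mice 5, 7 and 8. Its edgeR log2 fold change of 0.39, with a standard error of 0.94 and an adjusted p = 0.946, was the smallest of the list and that of Mmp8 (1.19, standard error 0.82, adjusted p = 0.758) the largest, the latter being 0.16 without mouse 7 and 1.95 without mouse 19. The mature neutrophil markers given above moved in the same mice, and their part in the granule gene values was not tested.

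**Figure D5:**
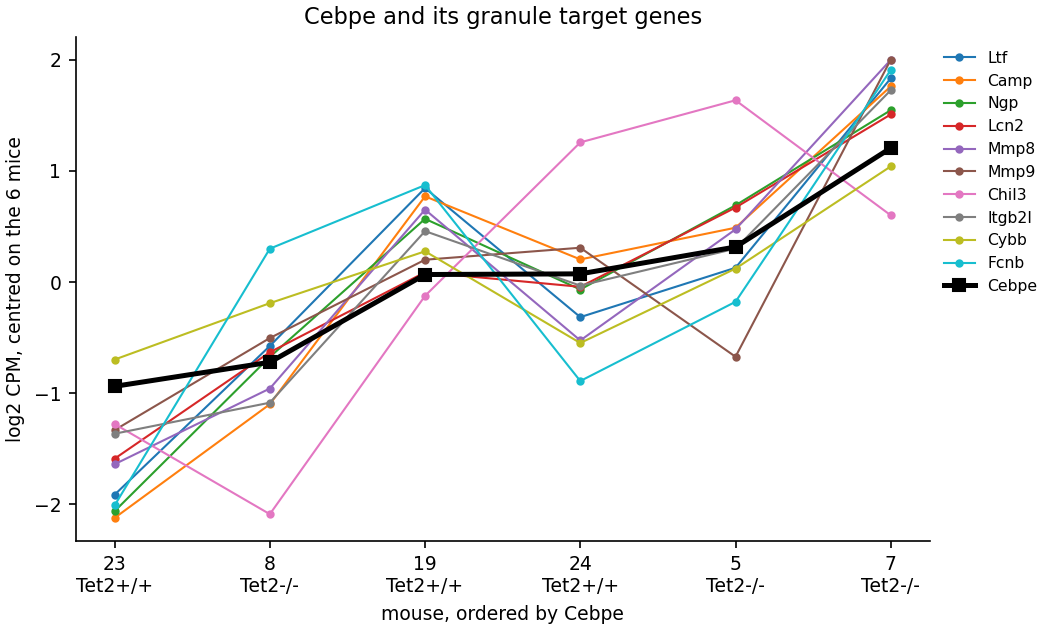
log2 CPM of Cebpe (black) and its 10 granule target genes in each mouse, centred on each gene's mean over the 6 mice, with mice ordered by Cebpe. Mouse 23 is at or near the bottom and mouse 7 at the top for most genes, with both genotypes mixed along the axis; Chil3 peaks in mouse 5.

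Receptor and primary granule genes that C/EBPα activates in progenitors gave 0 of 10 calls with edgeR and with DESeq2 (1 at an unadjusted edgeR p under 0.05, against 8.11% of all genes). Of their estimates 7 were positive and 3 negative, with a median of 0.39 (0.18 without mouse 24 and 0.24 without mouse 19). Mpo, myeloperoxidase of primary granules, had 4527, 4110 and 4230 CPM in Tet2+/+ mice 19, 23 and 24 and 3394, 3091 and 2662 CPM in Tet2-/- mice 5, 7 and 8. All Tet2+/+ mice were above all Tet2-/- mice, and the edgeR log2 fold change was -0.49, with a standard error of 0.25 and an adjusted p = 0.664. Of the 10 genes, 1 was lower and 1 higher in Tet2-/- without overlap, while 14.4% of all genes did not overlap. Elane, neutrophil elastase, had 974, 152 and 296 CPM in Tet2+/+ mice and 1333, 1008 and 913 CPM in Tet2-/- mice 5, 7 and 8. Its edgeR log2 fold change was 1.19 (standard error 0.64, adjusted p = 0.676), 2.27 without mouse 19, which lay between the Tet2-/- mice, and 0.76 without mouse 23. Mpo and Elane are also in the blast marker list above. The 2 enzymes of the same granule thus had estimates of opposite sign, neither of them called. Lyz2, lysozyme, had the highest level of the list, with 3368 to 8740 CPM in Tet2+/+ and 7095 to 10612 CPM in Tet2-/-. Among receptors, Csf2rb, the shared β chain for GM-CSF and IL-3, was the gene with an unadjusted edgeR p under 0.05 (log2 fold change 0.63, adjusted p = 0.593). It was singled out after its values were seen.

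Genes linked to p30 or held down by C/EBPα gave the single edgeR call in 83 genes over 6 lists, where 0.0451% of all genes were called. This list held Nt5e, Msi2, Gata2, Sox4, Myc and E2f1, was drawn up with the study's results on these mice known, and is not independent evidence of its direction. Sox4, a transcription factor of immature progenitors that C/EBPα represses, fell from 60.0, 87.1 and 69.5 CPM in Tet2+/+ mice 19, 23 and 24 to 15.2, 13.9 and 10.1 CPM in Tet2-/- mice 5, 7 and 8. The genotypes were far apart, and the edgeR log2 fold change was -2.46 with a standard error of 0.24 (adjusted p = 0.0348). It stayed between -2.31 and -2.59 with any 1 mouse left out and was -2.48 with edgeR on length-scaled counts. No fit with a mouse left out called Sox4, nor did edgeR on length-scaled counts (edgeR adjusted p = 0.0510). With the other scalings and filters edgeR called it (adjusted p from 0.00312 to 0.0323). DESeq2 on length-scaled counts called it too (adjusted p = 6.8e-15). DESeq2 called 3 of 6, against 1.74% of all genes, all lower, namely Sox4, Gata2 and Msi2. Gata2, a stem and progenitor factor that mast cells and basophils also express, had 23.3, 27.9 and 27.3 CPM in Tet2+/+ mice and 8.60, 4.44 and 5.21 CPM in Tet2-/- mice 5, 7 and 8 (edgeR adjusted p = 0.117, or 0.0336 with no filter on low counts; DESeq2 adjusted p = 5.4e-08). Msi2, an RNA-binding protein of stem cells, had 15.1, 20.2 and 21 CPM in Tet2+/+ mice and 10.5, 5.92 and 6.57 CPM in Tet2-/- mice 5, 7 and 8 (edgeR adjusted p = 0.324, DESeq2 adjusted p = 0.00796, or 0.284 with length-scaled counts). These 3 genes did not overlap between genotypes, as was true of 14.4% of all genes, and the basophil and mast cell markers given with Cebpa separated the same mice; their part in the Gata2 values was not tested. Myc (log2 fold change -0.52, edgeR adjusted p = 0.722; -0.24 without mouse 7 and -0.84 without mouse 5) and E2f1 (-0.08, edgeR adjusted p = 0.964), both drivers of proliferation, and Nt5e (1.21, edgeR adjusted p = 0.699; 0.27 without mouse 7 and 0.80 without mouse 23), which encodes the ectonucleotidase CD73, overlapped between genotypes.

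Inflammatory genes that C/EBPβ and C/EBPδ activate gave 0 of 11 calls with edgeR (2 at an unadjusted p under 0.05, against 8.11% of all genes) and 0 of 9 with DESeq2 (against 2.16% of all genes with a DESeq2 adjusted p), which gave Saa3 and Nos2 no adjusted p, with 8 positive and 3 negative estimates and a median of 0.37. Without mouse 5 the 10 genes still tested (not Nos2) had 2 positive and 8 negative estimates, with a median of -0.19. The genes with an unadjusted edgeR p under 0.05 were Saa3, an acute-phase protein, and Nos2, the inducible nitric oxide synthase. Both were high in mouse 5 alone. Nos2 had 14.7 CPM in mouse 5 and at most 0.16 CPM in the others, and Saa3 had 44.0 CPM in mouse 5 and at most 1.34 CPM in the others, so their estimates rested on that mouse. Saa3 was named after its values were seen. Mouse 5 also had the most Cebpb and the most Hp (haptoglobin, 1498 CPM against 317 to 685 CPM in the others). Tnf, the inflammatory cytokine, was highest in mouse 7 at 523 CPM and lowest in mouse 5 at 82.6 CPM. Ptgs2, the inducible prostaglandin synthase, had 3.71, 4.77 and 21.1 CPM in Tet2+/+ mice 19, 23 and 24 and 1.96, 12.8 and 1.47 CPM in Tet2-/- mice 5, 7 and 8. Its log2 fold change was -0.87 (edgeR adjusted p = 0.861), and it turned to 0.34 without mouse 24 and was -2.52 without mouse 7.

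Regulators that act on C/EBP genes or proteins gave 0 of 21 calls with edgeR and with DESeq2 (3 at an unadjusted edgeR p under 0.05, against 8.11% of all genes), with 12 positive and 9 negative estimates and a median of 0.12 (-0.01 without mouse 7). Trib1, an adaptor that brings C/EBPα to the COP1 ubiquitin ligase for degradation, had 146, 18.3 and 42.1 CPM in Tet2+/+ mice 19, 23 and 24 and 50.3, 508 and 41.8 CPM in Tet2-/- mice 5, 7 and 8. Its edgeR log2 fold change of 1.54, with a standard error of 1.13 and an adjusted p = 0.773, rested on mouse 7 and was -0.57 without it. Cdk6, a cell cycle kinase, had 258, 474 and 328 CPM in Tet2+/+ mice and 322, 136 and 143 CPM in Tet2-/- mice 5, 7 and 8, with a log2 fold change of -0.82 (standard error 0.40, edgeR adjusted p = 0.654), which was -1.35 without mouse 5. Mice 7 and 8 were below all others, and mouse 5 was within the Tet2+/+ range. Calr, calreticulin, which binds Cebpa and Cebpb mRNA, was higher in all Tet2+/+ mice (1049, 1324 and 1060 CPM) than in Tet2-/- mice 5, 7 and 8 (902, 576 and 868 CPM), at an edgeR adjusted p of 0.640. Of the 21 regulators, 3 were lower and 1 higher in Tet2-/- without overlap, while 14.4% of all genes did not overlap. Pcbp2, an RNA-binding protein of the same list, ranged from 456 to 692 CPM (log2 fold change 0.32, edgeR adjusted p = 0.730).

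Other bZIP factors, many of them able to pair with C/EBP proteins, gave 0 of 25 calls with edgeR (4 at an unadjusted p under 0.05, against 8.11% of all genes) and 0 of 24 with DESeq2, which gave Hlf no adjusted p, with 16 positive and 9 negative estimates and a median of 0.34 (0.06 without mouse 7). Fos, an AP-1 subunit and immediate-early gene, had 533, 814 and 489 CPM in Tet2+/+ mice 19, 23 and 24 and 286, 977 and 885 CPM in Tet2-/- mice 5, 7 and 8. Its values in mouse 5 were the lowest and in mouse 7 the highest, and its edgeR log2 fold change was 0.23 (standard error 0.46, adjusted p = 0.929). That estimate turned to -0.071 without mouse 7 and was 0.60 without mouse 5. Atf4, the stress-response factor, ranged from 237 to 594 CPM, with mouse 24 lowest and mouse 7 highest (log2 fold change 0.45, edgeR adjusted p = 0.759; 0.16 without mouse 7, 0.28 without mouse 24 and 0.72 without mouse 19). Fosl1, another AP-1 subunit, had the most positive estimate (1.79, standard error 0.74, edgeR adjusted p = 0.605), from 5.10 CPM in mouse 8 against at most 1.16 CPM elsewhere, and it was 0.66 without mouse 8. Dbp, a PAR-type bZIP factor of the circadian system, had the most negative among those averaging at least 1 CPM (-0.95, standard error 0.39, edgeR adjusted p = 0.604), with 3.77, 4.87 and 5.42 CPM in Tet2+/+ mice and 1.71, 3.34 and 2.22 CPM in Tet2-/- mice 5, 7 and 8.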

How the data were processed

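Total RNA of sorted blasts was made into TruSeq RNA v2 libraries, a kit that does not mark strand, and sequenced on a NextSeq. The estimated counts per transcript were deposited by the authors as Salmon 0.12.0 wrote them, without normalization between mice, against Ensembl transcripts of GRCm38 (mm10, GRCm38.p6 in the submitters' processing notes). The same files, as deposited by the authors, hold TPM values, scaled by effective length to the same total in every library.

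Estimated counts were summed to GENCODE M21 genes (112 of 136288 transcripts had no gene, holding at most 0.0416% of counts) and rounded, with Python 3.11.15 and pandas 2.3.3. Genes with library-size-normalized counts summing to at least 10 were fitted with edgeR 4.0.16 (R 4.3.3, TMM, quasi-likelihood test) on genotype alone, with Benjamini-Hochberg adjustment over all genes and a threshold of 0.05. Transcripts with a mean TPM of at least 0.1 were fitted with limma 3.58.1 on log2(TPM + 1), a scale that understates changes of low transcripts. Shares and ratios were compared by exact two-sided permutation of the 6 libraries. Alternatives were DESeq2 1.42.0, length-scaled counts (with DESeq2, the study's own method), other scalings, filters and pseudocounts, and each mouse left out. The labels give each library a mouse number of its own. p-values cover counting error and the spread between these 3 mice per genotype.

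The members and gene lists were chosen with earlier results of these data known. Besides the 6 members and Tet2, genes were named per list if called, if among the 2 highest by mean TPM, or if most negative or most positive at a mean of at least 1 CPM. The 2 genes most like each member and genes overlapping a member were named too. Ddit3 has 2 gene identifiers, and the one with more reads was used. Sequences at the Cebpa start codons and junction were read from the GENCODE M21 transcript sequences and placed on GRCm38 by the GENCODE M21 annotation. Promoter sequences were those of the RefSeq promoter windows described below. One of the marker lists is not reported here.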

Additional observations from a re-analysis of the deposited data

How the results depend on the processing

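Of 664 values over all results and alternatives, 59 changed direction, side of the threshold or, for counts of genes, moved by over 1.5 times. No fold change of Cebpa, Cebpb, Cebpd or Cebpe as a gene was among them. The causes of the changes below were not tested. Cebpg turned with mice left out (log2 fold changes from -0.40 to 0.0070), and Cebpz turned to -0.0040 with library size only, which put the median of all genes at -0.17. Leaving out mice moved the share of the summed TPM from -0.47 to 4.01 percentage points for Cebpb, from -2.68 to 0.15 for Cebpg and from -1.98 to 1.61 for Cebpz, whose share was 0.19 higher in Tet2-/- with CPM in place of TPM. Among transcripts, log2 changes with mice left out ran from -0.073 to 0.85 for Cebpe-201, -0.68 to 0.10 for Cebpg-201, -0.18 to 0.13 for Cebpz-201, -0.19 to 0.20 for Cebpz-202 and -0.31 to 0.37 for Cebpz-203. Log2 fold changes with mice left out ran from -0.51 to 1.28 for Chil3, -0.28 to 0.15 for E2f1, -0.071 to 0.60 for Fos, -0.017 to 1.10 for Hp, -0.10 to 1.73 for Ltf, -2.52 to 0.34 for Ptgs2, -0.091 to 4.72 for Saa3, -1.04 to 0.66 for Tnf and -0.57 to 2.72 for Trib1. The signs and medians of the lists with a mouse left out were computed after seeing the data. In the list of genes linked to p30 or held down by C/EBPα, DESeq2 called 3 genes, DESeq2 on length-scaled counts 2, which did not include Msi2, and edgeR with any mouse left out 0, although the log2 fold change of Sox4 stayed between -2.31 and -2.59. Over the whole table, genes lower in Tet2-/- numbered 10, but 326 with DESeq2, 322 with DESeq2 on length-scaled counts, 5 with edgeR on length-scaled counts, 62 with no filter and 0 to 7 with mice left out. Genes higher numbered 0, but 59 with DESeq2, 64 with DESeq2 on length-scaled counts, 4 with no filter, and 1 each with RLE factors and with filterByExpr. No paired analysis was possible because the mouse numbers of the groups are not shared. With 3 mice per genotype and a typical variation between mice of 43.6% (the common biological coefficient of variation), the members had 516 to 6848 counts per library.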

Other observations

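The RefSeq promoter windows (GRCm38, 250 bases before to 50 after the start of each gene) held Cebpa, Cebpb and Cebpg among the members. The letters TTGCNNAA, the core of a C/EBP site, were searched on both strands and found in 0 of these 3 windows, and in 10.8% of all 32851 windows. No match says only that these letters are not in this window. Between Cebpg and Cebpa on chromosome 7 the annotation lists 4 other genes, none of them a C/EBP gene.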
